A study of Mus musculus with 4 samples.

Results

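Muscle and heart store glucose as glycogen, and the genes described here encode the enzymes that build and break down this store, together with the muscle isozyme of fructose bisphosphatase. They are Gys1, Gbe1, Pygm, Pygb, Phka1, Phkg1 and Fbp2, 7 of the 18193 genes named on the arrays. All probe sets that the platform annotation pairs with 1 of these symbols alone were taken, 11 of 45037 probe sets. The genes were picked by name, with earlier results of these arrays in view, among them the heart value of Fbp2, so every value below is a description and no test was made.

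The study measured total RNA of mouse heart and muscle on oligonucleotide arrays, with 1 array for each of 4 groups, the heart and the muscle of d/d mice and the heart and the muscle of f/f mice. In d/d mice both alleles of the gene for MnSOD, the superoxide dismutase of mitochondria encoded by Sod2, were deleted by Cre recombinase from an MCK-Cre transgene, whose promoter is that of muscle creatine kinase. The f/f controls carry the same floxed alleles, and the labels give them no Cre. The labels give neither age nor sex, do not name the muscle taken and do not say how many animals a sample pools. With 1 array a group there is no spread between animals, so each difference compares a pair of arrays, and in whole tissue fewer cells of a type and less RNA per cell cannot be told apart.

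Glycogen synthase (Gys1, the muscle isozyme) lengthens the glucose chains of glycogen, and the branching enzyme (Gbe1) starts new branches on them. Glycogen phosphorylase releases glucose phosphate from the chain ends; Pygm encodes its muscle isozyme, which is absent in human McArdle disease, and Pygb its brain isozyme. Phosphorylase kinase switches phosphorylase on in response to calcium and hormones; Phka1 encodes the muscle form of its large regulatory subunit and Phkg1 its muscle catalytic subunit. Fructose bisphosphatase (Fbp2) removes a phosphate from fructose bisphosphate, against the direction of glycolysis, and in muscle it is known for its part in making glycogen from lactate.

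Signals are linear intensities, scaled so that the arrays share 1 trimmed mean, and values under a floor of 7.51 were treated as background. From 58.0% to 61.1% of probe sets lay above the floor on each array, and all 11 probe sets described here did so on all 4 arrays. A gene is said to be past the threshold at 2-fold, with the higher array above the floor. Probe sets of 1 gene disagreed in their log2 genotype difference with an SD of 0.39 in heart and 0.40 in muscle, which is the yardstick used here. It compares probe sets on the same pair of arrays, so it holds no spread between animals or between arrays. The median gene differed between d/d and f/f by -0.05 in heart and by -0.003 in muscle on the log2 scale. Sod2 itself was lower in d/d on 4 of its 4 probe sets in heart (log2 differences of -1.22 to -0.21) and on 3 of 4 in muscle (-0.44 to 0.06). The sources used here do not place these probe sets relative to the deleted part, so they do not check the genotype. Defining markers fitted the labelled tissues: 13 of 13 cardiac markers were at least 2-fold higher in heart than in muscle in both genotypes, and 12 of 12 fast fibre markers at least 2-fold lower.

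By the number past 2-fold and by the median, the 7 genes separated heart from muscle more than they separated the genotypes. Over all genes, too, more passed 2-fold between the tissues than between the genotypes. Not every member followed: Fbp2 differed 6.94-fold between the heart arrays, against 1.68-fold between the tissues in f/f and 23.6-fold in d/d mice. Gbe1 differed 1.97-fold between the heart arrays, against 1.86-fold between the tissues in f/f and 1.07-fold in d/d mice. In d/d mice 5 of the 7 were at least 2-fold lower in heart than in muscle, against 10.5% of 14124 genes measured, and 1 was higher, against 15.1%. In f/f mice 4 of the 7 were at least 2-fold lower in heart than in muscle, against 8.3% of 14364 genes, and 1 was at least 2-fold higher, against 12.1%. The gene higher in heart was Pygb in both genotypes. The median log2 difference, heart minus muscle, over the 7 genes was -2.50 in d/d mice and -1.52 in f/f mice, while over all genes it was 0.01 and 0.08.

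**Figure D1:**
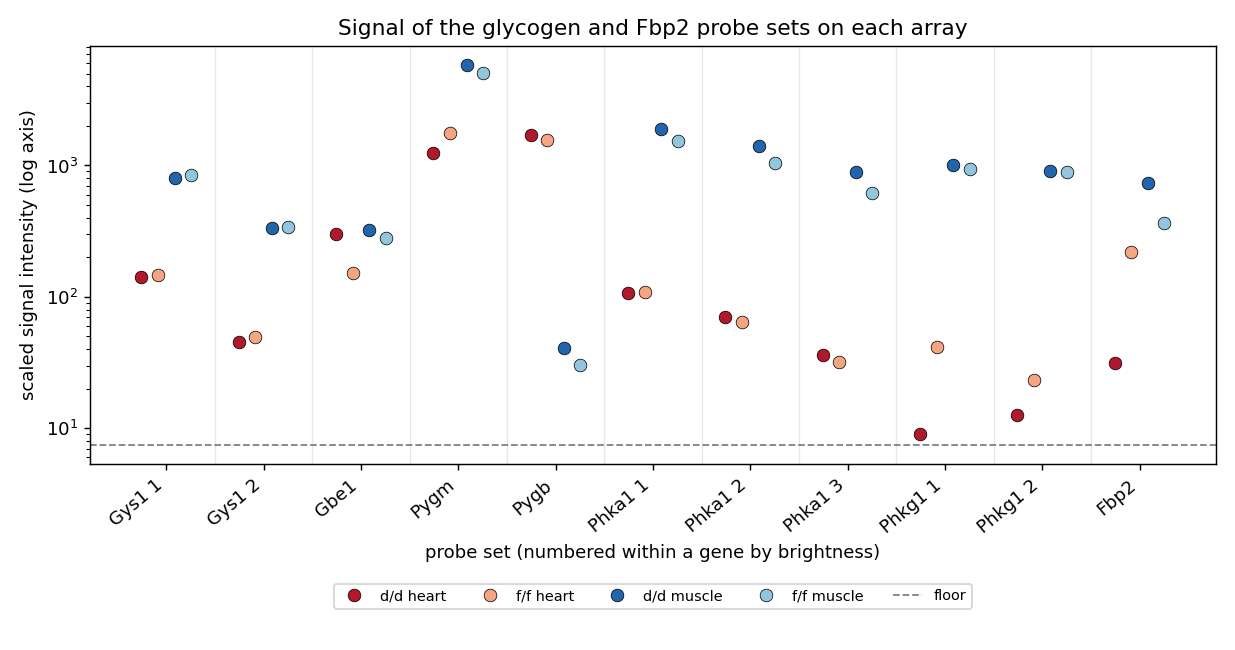
Scaled signal intensity (log axis) of the 11 probe sets on the heart and muscle arrays of d/d and f/f mice, 1 point per array, with the floor as a dashed line. Pygb is the gene whose heart points lie above its muscle points, and the heart points of Fbp2 lie far apart, at 31.4 in d/d and 218 in f/f.

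Of the synthesis genes, Gys1 did not separate the genotypes. Its brighter probe set (1416737_at) read 141 in d/d heart, against 147 in f/f heart, which is a log2 difference of -0.06. In muscle the same probe set read 797 in d/d, against 850.1 in f/f, a difference of -0.09. The second probe set (1450196_s_at) differed by -0.13 in heart and by -0.004 in muscle. All 4 of these differences were smaller than the yardstick. Gys1 was lower in heart than in muscle, by 5.66-fold in d/d and 5.79-fold in f/f mice on the brighter probe set, and by 7.47-fold and 6.83-fold on the other.

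Gbe1, which branches the polymer, had the highest genotype difference of the 7 genes in heart. Its probe set (1420654_a_at) read 299 in d/d heart, against 152 in f/f heart, 1.97-fold higher (log2 difference 0.98), just short of the threshold and above the yardstick. The ID ending of this probe set, its only one, marks probes that can match more than 1 transcript. Of the 13836 genes measured in heart, 575 had a higher difference. The muscle values were 321 in d/d and 283 in f/f, 1.13-fold higher, within the yardstick. The d/d heart value thus lay close to both muscle values, at 93.1% of the d/d muscle signal, while f/f heart stood at 53.7% of the f/f muscle signal.

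The phosphorylase isozymes had opposite orders of tissues, though both gave strong signal in heart. Pygm (1448602_at) read 1249 in d/d heart, against 1764 in f/f heart, 1.41-fold lower in d/d. The muscle signal was 5823 in d/d and 5046 in f/f, 1.15-fold higher in d/d. Both muscle arrays were thus above both heart arrays. The log2 difference of -0.50 in heart was larger than the yardstick and that of 0.21 in muscle was not. Of the 13836 genes measured in heart, 2375 had a lower difference than Pygm. Pygm was lower in heart than in muscle by 4.66-fold in d/d and by 2.86-fold in f/f mice.

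Pygb, the brain isozyme, showed the reverse order of tissues. Its probe set (1433504_at) read 1694 in d/d heart, against 1549 in f/f heart, which is a log2 difference of 0.13. In muscle it read 40.7 in d/d, against 30.4 in f/f, a difference of 0.42, slightly over the yardstick at a signal a few times the floor. It was higher in heart than in muscle by 41.7-fold in d/d and by 51.0-fold in f/f mice, and in f/f mice 20 of 14364 genes had a higher heart-to-muscle ratio.

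The kinase subunits were low in heart, and they differed from each other in the genotype comparison. Phka1 has 3 probe sets, which read 106, 70.2 and 36.3 in d/d heart, against 109, 64.5 and 32.05 in f/f heart. Their log2 differences of -0.04, 0.12 and 0.18 were all within the yardstick. In muscle they read 1893, 1407 and 894 in d/d, against 1544, 1041 and 612 in f/f. All 3 were higher in d/d muscle, by 0.29, 0.43 and 0.55 on the log2 scale, and the last 2 passed the yardstick; none reached 2-fold. Across tissues Phka1 was lower in heart than in muscle by 17.8-fold to 24.6-fold in d/d and by 14.1-fold to 19.1-fold in f/f mice.

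Phkg1, the catalytic subunit, was lower in d/d heart on both of its probe sets. The brighter one (1425164_a_at) read 9.10 in d/d heart, just above the floor, and 41.2 in f/f heart, 4.53-fold lower in d/d. The other (1422315_x_at) read 12.6 in d/d heart, against 23.5 in f/f heart, 1.86-fold lower. The endings of both IDs mark probes that can match more than 1 transcript, so no probe set free of this could stand for the gene. The direction was shared by the pair and the size was not, with log2 differences of -2.18 and -0.89. A value this near the floor limits the fold: with a higher floor, the 60th percentile, the gene's difference was -1.12, still past 2-fold, and with a pseudocount of 16 it was -1.19. In muscle the brighter probe set read 1009 in d/d, against 941 in f/f, and the other 903 and 890.5, differences of 0.10 and 0.02, both within the yardstick.

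Fbp2 had opposite genotype differences in the tissues. Its probe set (1449088_at) read 31.4 in d/d heart, against 218 in f/f heart, 6.94-fold lower in d/d, and 3 of 13836 genes had a lower difference in heart. The muscle values were 742 in d/d and 366 in f/f, 2.03-fold higher in d/d. On the log2 scale these are -2.79 and 1.02, and the difference between them was -3.82. Among the 12711 genes measured in both tissues, 2 had a heart difference that lay further below their muscle difference. The heart signal of Fbp2 was 4.23% of the muscle signal in d/d mice and 59.5% in f/f mice. The muscle difference sat on the threshold, and it was 0.93 on the values as deposited, 0.97 after quantile normalization and 0.99 with a pseudocount of 16.

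**Figure D2:**
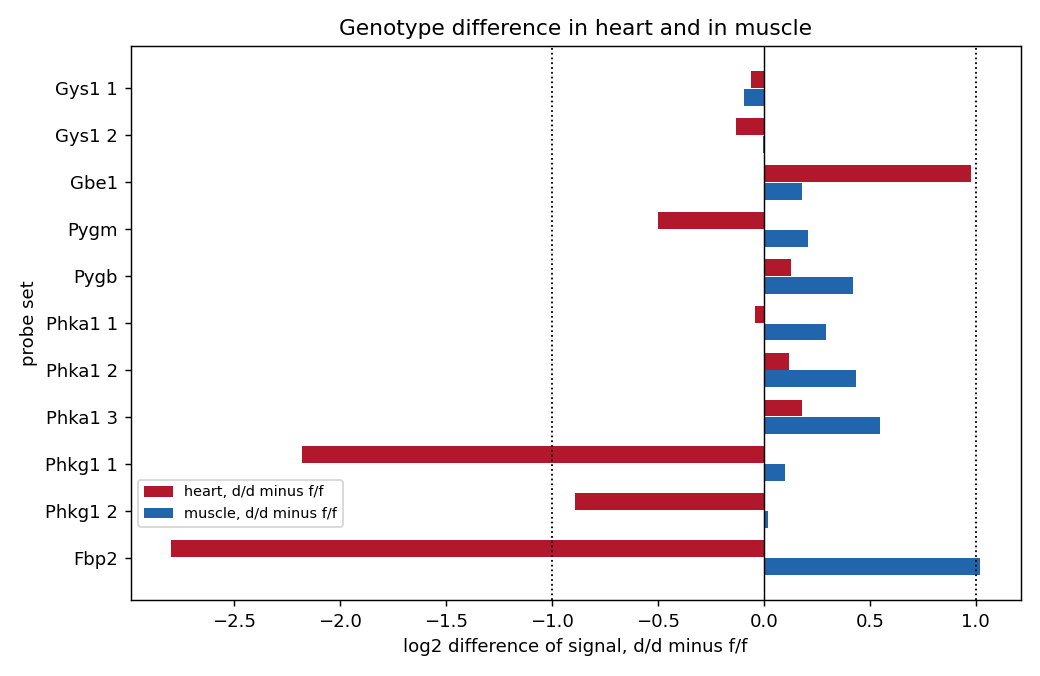
Log2 difference of signal, d/d minus f/f, for the 11 probe sets in heart (upper bar of each pair) and muscle (lower bar), with dotted lines at 2-fold. Fbp2 runs to -2.79 in heart and to 1.02 in muscle, the brighter Phkg1 probe set to -2.18 in heart, and Gbe1 to 0.98 in heart.

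Counted by gene, 2 of the 7 were at least 2-fold lower in d/d heart (Phkg1 and Fbp2), against 4.22% of the 13836 genes measured, and 0 were at least 2-fold higher, against 3.94%. In muscle 1 of the 7 was at least 2-fold higher in d/d (Fbp2), against 2.64% of 14256 genes, and 0 were lower, against 3.25%. Since Fbp2 was listed with its heart value known, nothing is read from these shares. The median log2 difference of the 7 genes was -0.06 in heart and 0.21 in muscle, with 6 of the 7 above 0 in muscle, against 49.6% of all genes.

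Of the members lower in heart than in muscle, Gys1 and Phka1 hardly differed between the heart arrays, at -0.06 and -0.04 on their brightest probe sets. In f/f mice the heart signal of those probe sets was 17.3% and 7.08% of the muscle signal. Phkg1 and Fbp2 were lower in d/d heart, and so were most fast fibre markers measurable there. Of 12 such markers, 9 were measurable in heart, 5 of these were at least 2-fold lower in d/d heart and 8 of 9 were below 0. With values under the floor set to it, their summed signal was 122 in d/d heart, against 227 in f/f heart, while on the muscle arrays it was 95721 in d/d and 89821 in f/f. In d/d heart 8 of the 12 were at or under the floor and in f/f heart 3 were, Tnni2, Tnnt3 and Actn3, 2 troponins and an actinin of fast fibres. As a share of muscle, the summed markers were at most 0.128% in d/d heart, against 0.253% in f/f heart, and single markers reached at most 0.436% and 1.04%. The brighter Phkg1 probe set stood at 0.902% in d/d heart, against 4.38% in f/f heart, and Fbp2 at 4.23% and 59.5%, both above every fast fibre marker in the same comparison.

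**Figure D3:**
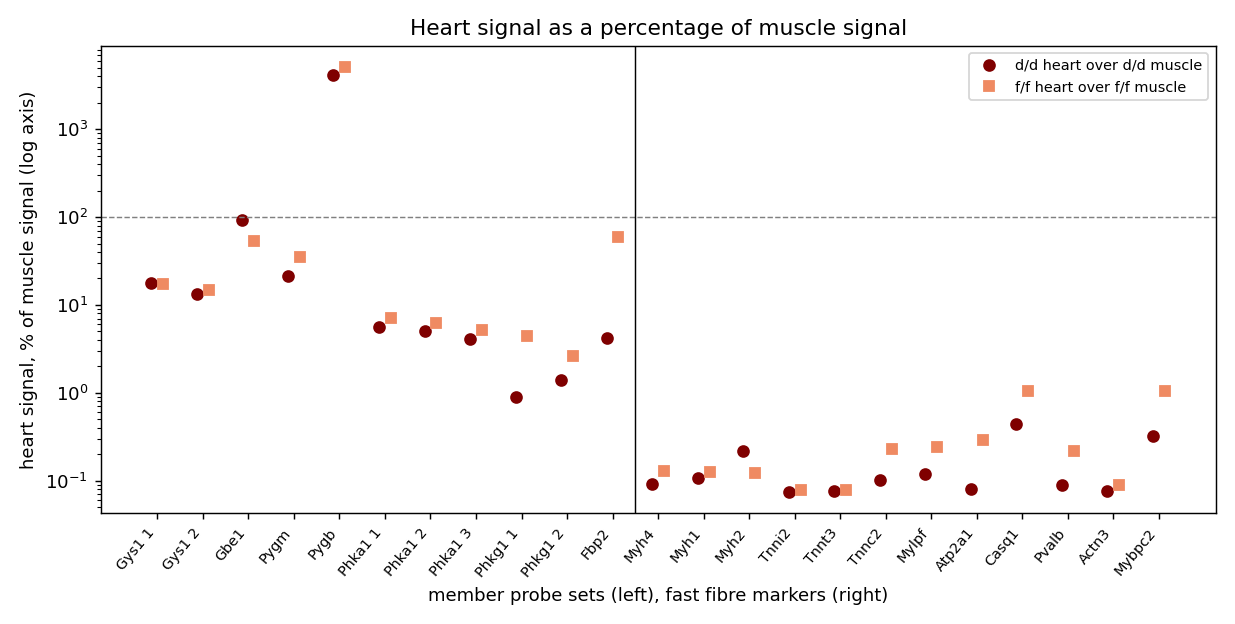
Heart signal as a percentage of muscle signal on the same probe set (log axis), d/d mice as circles and f/f mice as squares, for the 11 probe sets described (left) and 12 fast fibre markers (right); marker values under the floor are drawn at it, so they are upper limits. Fbp2 stands at 4.23% in d/d and 59.5% in f/f mice, while no marker exceeds 1.04%.

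Other cell types also differed between the heart arrays. Of 8 fibroblast markers, 7 were above 0 in d/d heart, with a summed signal of 9847 in d/d and 6009 in f/f, and of 9 macrophage markers 8 were above 0, with 2827 in d/d and 2113 in f/f. In muscle both sets ran the other way: the fibroblast sum was 4524 in d/d and 7137 in f/f, and the macrophage sum 790 in d/d and 1249 in f/f. Cardiac markers in muscle summed to 2916 in d/d and 5168 in f/f, with 7 of 11 measurable ones at least 2-fold lower in d/d. Slow fibre markers, most of which heart also expresses, were below 0 for 10 of 11 in muscle, and 4 were at least 2-fold lower in d/d (median log2 difference -0.85, summed signal 2952 in d/d and 5470 in f/f). In heart their median was -0.10, and Myh7, the slow myosin heavy chain, read 3953 in d/d, against 1140 in f/f, 3.47-fold higher. Fast fibre markers in muscle had a median of 0.10, within the yardstick, and 11 of 12 were above 0. The muscle arrays were scaled by 1.22 in d/d and 1.15 in f/f, and their highest deposited signals were 8460 and 8483. The part of the scaling in this small shift, and in the fast fibre sums on the muscle arrays, was not tested. The part of the cell type markers in the values of Gbe1, Pygm, Pygb, Phka1, Phkg1 and Fbp2 was not tested.

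The upstream sequences of 4 members are shown because they contrast the 3 genes with the lowest genotype differences in heart, Fbp2, Phkg1 and Pygm, with Pygb, the one gene higher in heart than in muscle. Each window runs from 250 bases before to 50 bases after the annotated start (RefSeq, GRCm38.p6), 5′ to 3′ on the gene's strand, and capitals mark E-boxes, the CANNTG motif that myogenic and other helix-loop-helix factors are known to bind.
Fbp2 promoter, chr13:62858351-62858650, minus strand: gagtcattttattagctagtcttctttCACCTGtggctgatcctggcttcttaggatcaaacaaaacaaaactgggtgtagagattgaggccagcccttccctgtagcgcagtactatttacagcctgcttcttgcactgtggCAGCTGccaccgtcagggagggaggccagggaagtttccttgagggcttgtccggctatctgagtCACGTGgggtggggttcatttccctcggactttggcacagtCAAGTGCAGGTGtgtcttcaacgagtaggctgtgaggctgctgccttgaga
Phkg1 promoter, chr5:129879039-129879338, minus strand: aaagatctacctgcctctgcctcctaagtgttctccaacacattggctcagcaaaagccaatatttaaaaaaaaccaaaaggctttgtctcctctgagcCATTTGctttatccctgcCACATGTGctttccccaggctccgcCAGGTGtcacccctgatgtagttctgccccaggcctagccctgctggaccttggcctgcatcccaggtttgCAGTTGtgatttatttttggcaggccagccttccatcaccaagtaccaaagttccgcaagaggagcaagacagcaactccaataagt
Pygm promoter, chr19:6384158-6384457, plus strand: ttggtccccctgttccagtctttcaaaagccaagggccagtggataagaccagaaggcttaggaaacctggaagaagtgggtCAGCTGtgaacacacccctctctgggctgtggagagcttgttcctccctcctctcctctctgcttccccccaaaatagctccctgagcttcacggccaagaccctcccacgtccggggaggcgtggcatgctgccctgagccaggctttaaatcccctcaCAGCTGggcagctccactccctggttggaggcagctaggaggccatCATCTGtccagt
Pygb promoter, chr2:150786546-150786845, plus strand: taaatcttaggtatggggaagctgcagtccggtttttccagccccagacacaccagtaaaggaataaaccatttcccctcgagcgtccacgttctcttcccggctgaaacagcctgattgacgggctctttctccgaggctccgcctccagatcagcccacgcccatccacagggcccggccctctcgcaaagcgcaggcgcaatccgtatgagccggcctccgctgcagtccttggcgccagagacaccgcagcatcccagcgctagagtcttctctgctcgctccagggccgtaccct
The Fbp2 and Phkg1 windows each held 5 E-boxes, a pair of which overlap in Phkg1, the Pygm window held 3 and the Pygb window 0. The windows not shown, of Gys1, Gbe1 and Phka1, held 2 each. Both strands were searched. An E-box of any kind stood in 6 of the 7 member windows and in 72.3% of 32851 promoters of the same length, so its presence is common. The narrower form CAGCTG stood in 16.3% of promoters and in 4 of the 7 members (Gys1, Pygm, Phka1 and Fbp2), where it is a subset of the E-boxes counted. No member window held the MEF2 consensus, the SRF CArG box, CATTCC, TNAAGGTCA or TATAAA, which stood in 3.19%, 1.63%, 14.7%, 1.28% and 13.6% of promoters. These are matches of letters in 1 short window and say nothing of binding.

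Around the 7 enzymes, 5 lists of glycogen and glucose genes held 75 entries, of which 66 matched a gene. Of 14 other glycogen genes measured in each tissue, 0 passed 2-fold in either direction, with a median log2 difference of 0.12 in heart and -0.02 in muscle. The one that differed most in heart was Ugp2, whose enzyme makes UDP-glucose, the donor for glycogen synthase. It read 3039 in d/d heart, against 1671 in f/f heart, 1.82-fold higher, and its other probe sets were higher by 0.86 to 1.36 on the log2 scale. The muscle signal was 4309 in d/d and 4272 in f/f. The ID ending of the Ugp2 probe set used marks probes that can match more than 1 transcript. With such probe sets left out, Ugp2 differed by 1.36 in heart, past 2-fold, so the count of 0 in heart depends on this choice. The gene that differed most in muscle was Pygl, the liver phosphorylase, at 15.6 in d/d against 28.5 in f/f muscle. Phkb, the beta subunit of phosphorylase kinase, read 228 in d/d heart against 233 in f/f heart, close to equal as Phka1 was, and Gyg, the glycogenin primer, read 1162 and 926, a log2 difference of 0.33, with 0.32 on its other probe set.

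Among 18 measured genes that target or regulate the enzymes, 2 were at least 2-fold higher and 1 at least 2-fold lower in d/d heart, with a median of 0.03. Ppp1r3c, a scaffold that brings a protein phosphatase to glycogen, read 2210 in d/d heart, against 744 in f/f heart, 2.97-fold higher, with 1.54 on the log2 scale on its other probe set. In muscle it read 1295 in d/d, against 1425 in f/f. Another targeting subunit, Ppp1r3f, read 18.2 in d/d heart, against 41.0 in f/f heart, 2.25-fold lower. It has 1 probe set, and with a pseudocount of 16 its log2 difference was -0.74, under 2-fold. Ppp1r3e was at least 2.14-fold higher in d/d heart, at 16.1 with f/f at the floor, but its other probe set differed by -0.71. In muscle 0 of 17 measured genes passed 2-fold, and Ppp1r3a, the muscle targeting subunit, differed most, at 8.67 in d/d and 15.35 in f/f. Both signals were low, with the d/d value just above the floor. The log2 difference of -0.82 became -0.35 with a pseudocount of 16.

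The AMPK subunits, which form a kinase that senses cellular energy and inhibits glycogen synthase, had 0 of 7 genes past 2-fold in either tissue, with medians of -0.18 in heart and 0.26 in muscle. Prkab2, a subunit that binds glycogen, read 230 in d/d heart, against 118 in f/f heart, 1.94-fold higher, with 0.33 and 1.20 on the log2 scale on its other probe sets. The muscle values were 790 in d/d and 539 in f/f. The catalytic subunit Prkaa1 differed most in muscle, at 23.1 in d/d and 42.2 in f/f.

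Of 15 measured genes of the fructose bisphosphate cycle and gluconeogenesis, 1 was at least 2-fold higher and 0 lower in d/d heart, with a median of 0.17. It was Pfkp, the platelet isozyme of phosphofructokinase, which runs the step opposite to Fbp2, at 423 in d/d heart against 187 in f/f heart, 2.27-fold higher, with 0.99 on the log2 scale on its other measured probe set. Pfkm, the muscle isozyme, read 2021 in d/d heart against 2679 in f/f heart, which is a log2 difference of -0.41, slightly over the yardstick. In muscle 1 of 15 was at least 2-fold lower, the aldolase Aldoc, at the floor in d/d and 15.9 in f/f, so at least 2.12-fold. The ID ending of this Aldoc probe set marks probes that can match more than 1 transcript. With the median over its probe sets the log2 difference of Aldoc was -0.54. With a pseudocount of 16 it was -0.48, so both were under 2-fold. Fbp1, the liver isozyme of fructose bisphosphatase, was near the floor, at 7.86 in d/d heart against 15.5 in f/f heart, and at the floor on both muscle arrays.

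Glucose uptake and phosphorylation had 10 measured genes, of which 2 were at least 2-fold lower in d/d heart and 0 higher, with a median of -0.27. Tbc1d4, a regulator of glucose transporter traffic in response to insulin, read 109 in d/d heart against 300.0 in f/f heart, 2.76-fold lower, and -2.14 on the log2 scale on its other probe set. The glucose transporter gene Slc2a12 read 14.6 in d/d heart against 40.5 in f/f heart, 2.78-fold lower. The ID ending of this probe set marks probes that can match more than 1 transcript, and its other probe set was not above the floor in heart. With the median over the pair the log2 difference was -0.74, and with a pseudocount of 16 it was -0.88, both under 2-fold. In muscle 2 of 10 were at least 2-fold higher and 0 lower. Slc2a8, a glucose transporter, read 107 in d/d against 46.4 in f/f muscle, 2.31-fold higher, and the hexokinase Hk3 read 18.9 in d/d with f/f at the floor, at least 2.52-fold higher, but its other probe set differed by 0.04 on the log2 scale, and with the median over the pair the gene was under 2-fold at 0.68. The shares of all genes past 2-fold given above for each tissue are the background of these counts.

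**Figure D4:**
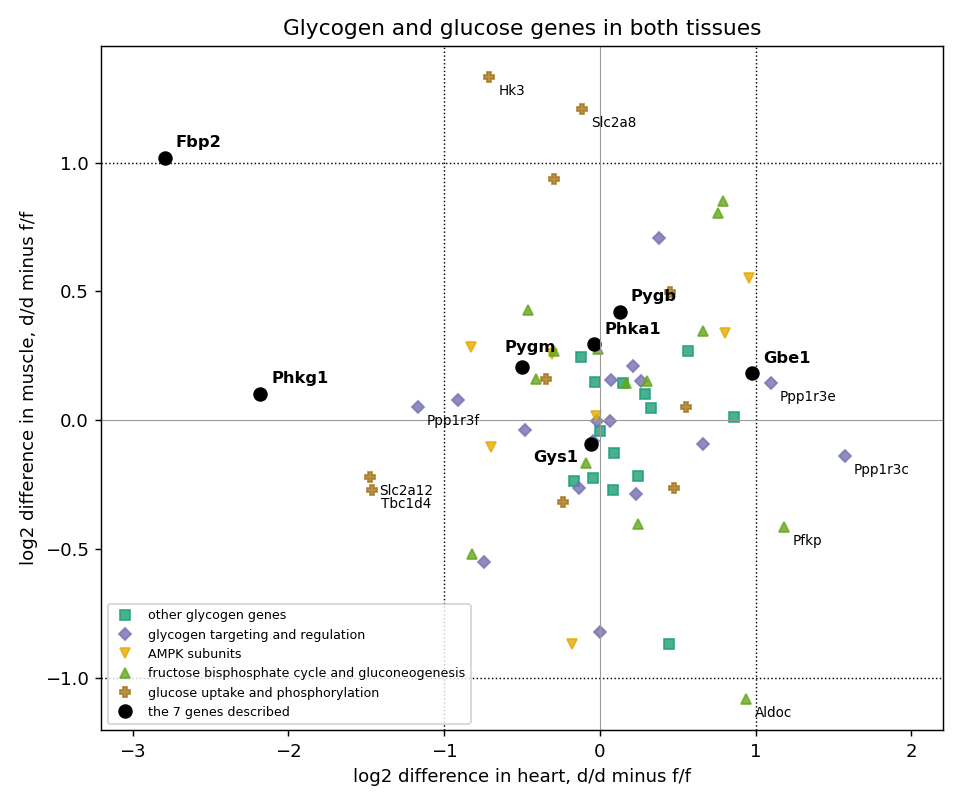
Log2 difference in heart (x axis) against that in muscle (y axis), d/d minus f/f, for the 7 genes (black) and the measured genes of the 5 lists, with dotted lines at 2-fold; list genes past 2-fold in either tissue are named. Fbp2 lies alone at the upper left, at -2.79 and 1.02.

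The genes whose pattern lay nearest to that of Fbp2 were found from the 4 centred log2 values, by Euclidean distance over the 4 arrays among 11938 other genes that cleared the floor on 3 or more arrays. They were Rbfox1, a splicing factor, at a distance of 0.97, Ramp1 at 0.99, Rpl3l, a ribosomal protein of striated muscle, at 1.08, the calcium-dependent kinase Camk2a at 1.08 and Smco1 at 1.11. On these probe sets all 5 were lower in d/d heart, with log2 differences of -2.04, -1.77, -1.92, -1.31 and -1.54, and all had smaller muscle differences than Fbp2, at most 0.82. Other probe sets of 3 of them were less clear: 2 of Rbfox1 gave -1.65 and -1.38 in heart, the other one of Ramp1 measured there gave -0.40, and 4 of Camk2a ranged from -2.20 to -0.03. With the median over its probe sets, Ramp1 was -0.40 and Camk2a -0.76, both under 2-fold. The neighbours of Pygm lay at smaller distances, which are not scaled to the size of a gene's differences. The nearest was Slc25a12, a mitochondrial carrier of aspartate and glutamate, at 0.08, then Fdft1, which makes squalene, at 0.10. Cacna2d1, a calcium channel subunit, lay at 0.13, Acvr2b at 0.16 and Stat5b at 0.18. Other probe sets of Slc25a12 gave -0.80 and -0.79 in heart, against -0.40 on the one used. In heart 4 others of Cacna2d1 ranged from -0.68 to 0.65. Those of Fdft1, Acvr2b and Stat5b gave -0.72, -0.57 and -0.36. A likeness over 4 arrays is a description of these arrays.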

How the data were processed

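The deposited table gives 45101 probe sets, each with a linear intensity on every array; the step by which the authors turned scans into intensity is not stated in the labels, nor is any software. Of the probe sets, 64 array controls were left out. Each array was scaled to the mean of the 4 trimmed means (2% cut at each end), values under the floor (mean of the 40th percentiles, 7.51) were set to it, and log2 was taken. Names came from the platform annotation, checked by Entrez id against RefSeq (GRCm38.p6): 34945 had 1 symbol, 932 several and 9160 none. Where a gene had several, the brightest by mean log2 stands for the gene. A fold against an array at the floor is a lower bound. With 1 array a group, the groups being taken from titles and tissue labels, no test was made and the number of arrays limits the precision.

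The members and lists were chosen with earlier results of these data known. The rule for named genes takes all member probe sets, list genes past 2-fold in either tissue, the largest difference of each list and tissue, and the 5 nearest patterns to Fbp2 and Pygm; Phkb, Gyg, Pfkm and Fbp1 were added for their roles after their values were seen. Scaling and calls were tried on simulated data in which only bright probe sets were changed, so calls near the floor were not tested there. Python 3.11.15, numpy 2.4.6 and pandas 2.3.3 were used. Alternatives were 3 other scalings, 2 other floors, a pseudocount, the median over probe sets, and leaving out probe sets whose ID endings (_s_at, _x_at, _a_at) mark probes that can match more than 1 transcript, where the gene has another.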

Additional observations from a re-analysis of the deposited data

Results flagged for a closer look

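With 1 array a group, the following differences between heart and muscle could not be tested. Of the members, 4 had genotype differences of opposite sign in the 2 tissues. The heart difference minus the muscle difference, on the log2 scale, was -3.82 for Fbp2, -2.28 for Phkg1, -0.70 for Pygm and -0.33 for Phka1; the last changed sign in heart between probe sets. Among the surrounding genes past 2-fold or largest in their list, the same measure was 2.02 for Aldoc, -2.04 for Hk3, 1.60 for Pfkp, 1.71 for Ppp1r3c, -1.22 for Ppp1r3f, 1.31 for Pygl and -1.32 for Slc2a8. Aldoc and Hk3 rest on signals at the floor, and on the other probe set of Hk3 the genotype differences were 0.40 in heart and 0.04 in muscle. Some signs rest on differences within the yardstick, with Ppp1r3c at -0.14 and Ppp1r3f at 0.05 in muscle, and Slc2a8 at -0.11 in heart. Ppp1r3f in muscle was -0.04 on the values as deposited. Pfkp in muscle was -0.41, but 0.27 with the median over its probe sets.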

How the results depend on the processing

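The 28 member values (7 genes in 4 comparisons) were recomputed under 8 alternatives, giving 224 values. Of these, 98 equalled the reported value, because the alternative could not touch them: the gene has 1 probe set, its signals lay above the floor tried, or its probe set was not replaced. Of the other 126, 118 moved by less than the SD between probe sets of a gene in the same comparison, and 8 moved by more. Among the values past 2-fold, 0 changed sign. For heart against muscle this SD was wider than the genotype yardstick, at 0.53 in f/f and 0.56 in d/d mice. On the values as deposited, each member's tissue differences moved by less than this SD but by more than the genotype yardstick. Pygm, for example, went from -1.52 to -1.09 in f/f and from -2.22 to -1.75 in d/d mice. The sign changed in 2 cases, both of small differences: Phka1 in heart was 0.12 with the median over probe sets, and Gbe1 in d/d heart against d/d muscle was 0.36 on the values as deposited, where the median of all genes moved to 0.45. The count of members past 2-fold in muscle was 0, not 1, on the values as deposited, after quantile normalization and with a pseudocount of 16. The number of all genes past 2-fold depended on the floor. In heart it was 1129, with 3418 at the 20th percentile, 569 at the 60th and 390 with the pseudocount; in muscle it was 839, with 3429, 163 and 130. For d/d heart against d/d muscle it was 3619, with 6078 at the 20th percentile and 2196 with the pseudocount, and for f/f heart against f/f muscle 2933, with 5396 and 1678. On the values as deposited the share of these genes that were higher in heart was 83.3% in d/d and 83.7% in f/f mice, against 59.0% and 59.4%. In muscle the share higher in d/d was 31.1% as deposited and 34.4% with the floor at the 60th percentile, against 44.8%. Ppp1r3e in heart was -0.71 with the floor at the 20th percentile, where its other probe set represents it. No paired analysis was possible because each group holds 1 array.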
